A study of Mus musculus with 23 samples.

Results

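Conventional CD4+ T cells that lack Foxp3 were transferred into lymphocyte-free mice, and the progeny that had come to express Foxp3 were set against the progeny that had not. The arrays were chosen by their sample labels: 3 arrays of Foxp3+ cells and 3 arrays of Foxp3- cells, 6 of the 23 arrays of a study of regulatory T (Treg) cell phenotypes in mice. Donor cells were CD4+ T cells negative for a Foxp3-GFP reporter, from BDC2.5 mice on the NOD background, whose T cells carry a transgenic receptor for a pancreatic islet antigen. They were injected intravenously into NOD RAG-/- hosts, whose own T and B cells are absent and which still have myeloid, natural killer (NK) and red cell lineages. CD3+ CD4+ cells were sorted from host spleen and lymph nodes 14 days later, as GFP+ cells (Foxp3+) and as GFP- cells (Foxp3-), with B220, CD8a and CD11b/c positive cells gated out. Both groups therefore share the donor genotype, the reporter, the host deletion, the tissue and the time. Each array held cells of 2 to 3 male mice aged 6 to 10 weeks (the sex and age of all arrays), so the spread between arrays is a spread between pools. One label field calls the GFP- cells converted as well; their titles and gates place them in the Foxp3- group.

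The other arrays served 2 purposes: all 23 gave the estimate of spread, and 2 other pairs of groups gave comparisons that share no array with the homeostatic one. LP Treg and LP Tconv (2 arrays each, 4 to 6 mice per array) were GFP+ and GFP- cells of the small intestinal lamina propria of C57BL/6 Foxp3/GFP mice. DEC CD25+ and DEC CD25- (3 and 4 arrays, 5 to 10 mice per array) were progeny of CD25- cells of HA6.5 RAG-/- Balb/c mice, recovered 3 weeks after transfer into Balb/c hosts given 50 ng of a hemagglutinin peptide coupled to an antibody against the dendritic cell receptor DEC-205. The DEC cells were sorted by CD25, the product of Il2ra, and not by Foxp3.

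Foxp3 is the transcription factor that defines Treg cells, which restrain the responses of other lymphocytes. Most Treg cells arise in the thymus, but mature CD4+ T cells can also switch on Foxp3 in the periphery, a process called conversion. In a host without lymphocytes, transferred T cells divide strongly in response to self antigen, microbial antigen and unused cytokines; this is homeostatic expansion, and some of its progeny convert. Treg cells consume interleukin 2 (IL-2) through a high affinity receptor and hardly make it, whereas activated conventional cells make cytokines, TNF family ligands and chemokines.

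The 6 arrays were alike in quality. Median intensities lay between 77.8 and 81.0, and the 3' probe set of Gapdh exceeded the 5' one by 2.53 to 3.30 on the log2 scale in both groups together. Correlations across genes were 0.985 to 0.992 within the groups. T cell identity transcripts were high on all 6 arrays (Cd3e 11.28 to 11.47 in Foxp3+ and 11.27 to 11.70 in Foxp3- arrays, log2 intensity), and the B cell marker Cd79a was below the detection filter of 6.27 on all 6. Cd8b1 also lay below it, but Cd8a, the chain used in the gate, lay above it on all 6. Transcripts of myeloid and red cells were plentiful on several arrays of both groups, as described further on.

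After 14 days, Foxp3+ and Foxp3- progeny differed at 220 of 12516 genes tested, which is 1.76% (limma moderated test, Benjamini-Hochberg adjusted p under 0.05; such genes are termed called). Higher levels in Foxp3+ cells were called for 94 genes (0.751%) and lower levels for 126 (1.01%). Of these, 180 differed at least 2-fold and 14 at least 8-fold. The arrays of the groups did not overlap at 218 of the called genes, against 22.3% of all tested genes. All 220 had the same sign in each of the 3 pairs of same-number arrays, which lack of overlap fixes for those 218. With the array number as a block, 217 genes were called (1.73%), of which 201 were also called without it. Fitted alone, with the spread taken from them only, the 6 arrays gave 741 calls (5.92%), and 212 of the 220 were among them. Without Foxp3+ array 1 or 3 or Foxp3- array 1 the count was 142, 133 or 135. Without both arrays of number 1, 2 or 3 it was 71, 131 or 74, and 34, 20 or 34 of the 71 called genes named below lost their call. At 53 called genes the mean of the lower group lay below the filter, where background holds up the value, and folds of such genes are given as "at least". RNA of pooled cells cannot tell fewer expressing cells apart from less RNA per cell.

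**Figure D1:**
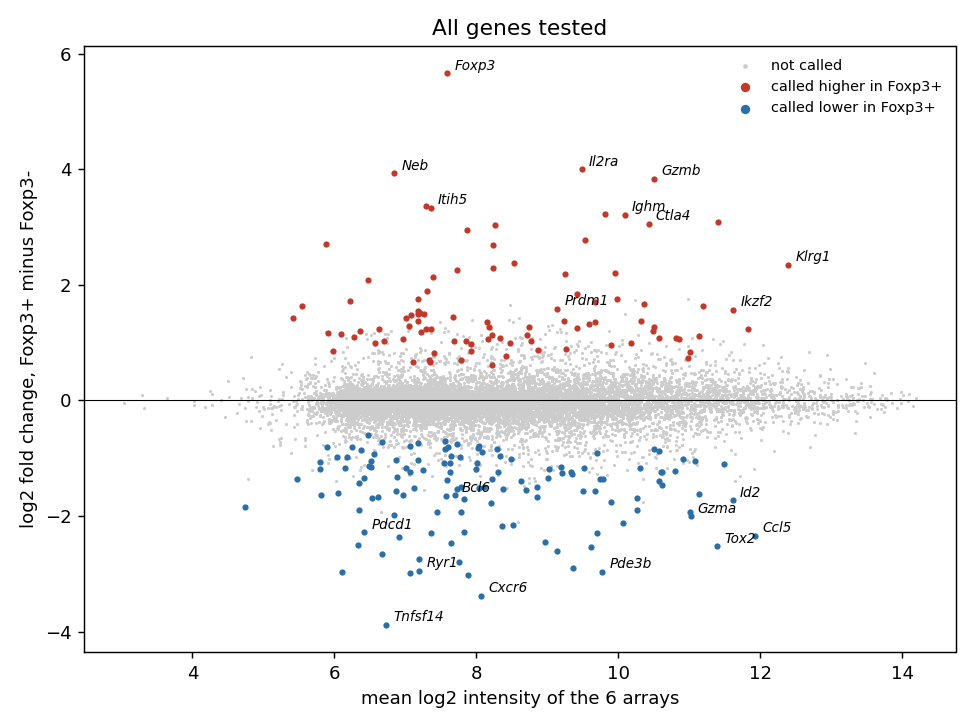
Log2 fold change (Foxp3+ minus Foxp3-, vertical axis) against the mean log2 intensity of the 6 homeostatic arrays (horizontal axis) for the 12516 genes tested. Each point is a gene; the 94 genes called higher are red, the 126 called lower are blue, and Foxp3 stands highest at 5.66.

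Foxp3 itself stood at 10.42, 10.35 and 10.49 (log2 intensity) on Foxp3+ arrays 1, 2 and 3, against 4.71, 4.81 and 4.77 on Foxp3- arrays 1, 2 and 3. The difference of 5.66 ± 0.30 (standard error, n = 3 and 3), at least 50.4-fold higher in Foxp3+ cells (adjusted p = 4.67e-09), follows from the sort and checks the labels. All values below are log2 intensities in the same array order, differences are Foxp3+ minus Foxp3- with their standard error, and n is 3 and 3 throughout.

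Il2ra, which encodes the alpha chain that gives the IL-2 receptor its high affinity, had 11.64, 11.41 and 11.41 in Foxp3+ cells, against 7.89, 7.55 and 7.02 in Foxp3- cells. It was 16-fold higher (4.00 ± 0.31, adjusted p = 5.14e-07), with about 4 log2 units between groups and less than 1 within either. Gzmb, a granule protease of killer cells that activated Treg cells also make, had 12.61, 12.05 and 12.58 in Foxp3+ cells, against 8.44, 8.89 and 8.42 in Foxp3- cells, and was 14.2-fold higher (3.83 ± 0.26, adjusted p = 5.31e-08). Ctla4, the inhibitory receptor for B7 ligands, had 11.99, 12.17 and 11.69 in Foxp3+ cells, against 8.29, 10.71 and 7.68 in Foxp3- cells. Its Foxp3+ arrays were alike, whereas Foxp3- array 2 stood more than 2 log2 units above both other Foxp3- arrays. Ctla4 was 8.33-fold higher (3.06 ± 0.60, adjusted p = 0.0084). That call ended without Foxp3- array 1 (adjusted p = 0.0687) and without Foxp3- array 3 (adjusted p = 0.0677), where the difference was 2.45; without Foxp3- array 2 it was 3.97.

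The other 2 markers were lower in Foxp3+ cells. Tnfsf14 encodes LIGHT, a TNF family ligand that costimulates T cells and acts on stroma. It had 4.75, 4.74 and 4.87 in Foxp3+ cells, below the filter on every array, against 9.30, 8.21 and 8.49 in Foxp3- cells, and was at least 14.7-fold lower (-3.88 ± 0.26, adjusted p = 5.31e-08). A second, dim probe set of the gene differed little (4.92 in Foxp3+ and 5.22 in Foxp3- cells). Pdcd1, which encodes the inhibitory receptor PD-1, had 4.92, 5.51 and 5.42 in Foxp3+ cells, against 7.77, 7.29 and 7.63 in Foxp3- cells, and was at least 4.86-fold lower (-2.28 ± 0.43, adjusted p = 0.00649). It was not called without number 1 or number 3 of both groups (adjusted p up to 0.205). The groups did not overlap for any of the 6 marker genes.

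**Figure D2:**
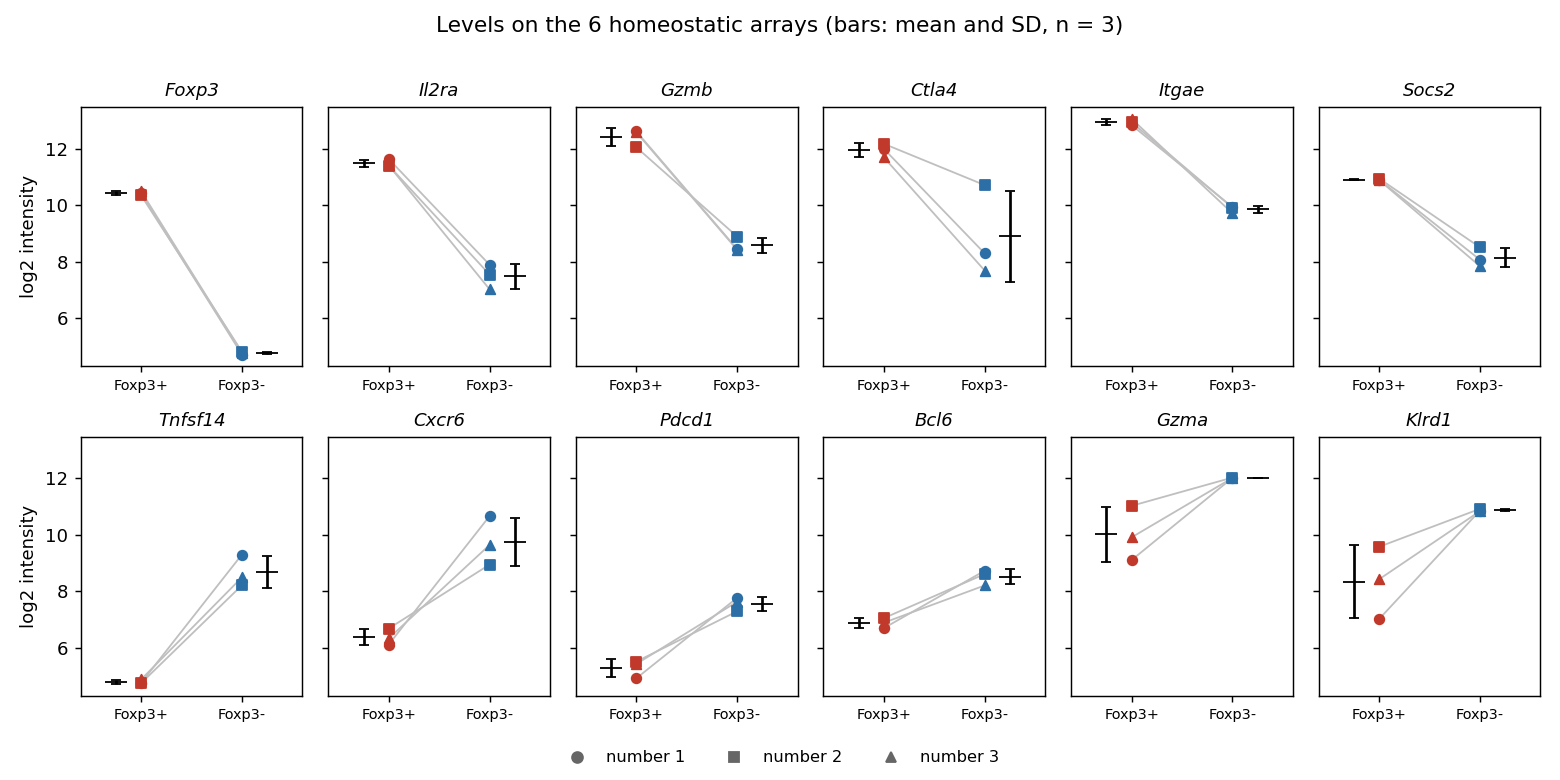
Log2 intensity (vertical axis) of 12 genes on the 3 Foxp3+ and the 3 Foxp3- homeostatic arrays; symbols give the array number, grey lines join equal numbers, and bars show mean and standard deviation. The upper row holds genes higher in Foxp3+ cells and the lower row genes lower in them; Ctla4 is spread widely in Foxp3- cells, and Gzma and Klrd1 in Foxp3+ cells.

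Promoter windows of 4 genes with opposed behaviour are shown to set their sequences side by side: Gzmb and Il2ra, higher in Foxp3+ cells, and Gzma and Tnfsf14, lower. Each runs from 250 bases before to 50 bases after the annotated start on the strand of the gene (RefSeq, GRCm38.p6). Gzmb lies at chr14:56262285-56262584 (minus strand), Gzma at chr13:113100932-113101231 (minus), Il2ra at chr2:11642542-11642841 (plus) and Tnfsf14 at chr17:57194132-57194431 (minus). Capitals mark matches on either strand to TGTGG, the core bound by RUNX factors (read as CCACA on the other strand), and to TTCNNNGAA, the palindrome bound by STAT5 and other STAT factors.

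Gzmb: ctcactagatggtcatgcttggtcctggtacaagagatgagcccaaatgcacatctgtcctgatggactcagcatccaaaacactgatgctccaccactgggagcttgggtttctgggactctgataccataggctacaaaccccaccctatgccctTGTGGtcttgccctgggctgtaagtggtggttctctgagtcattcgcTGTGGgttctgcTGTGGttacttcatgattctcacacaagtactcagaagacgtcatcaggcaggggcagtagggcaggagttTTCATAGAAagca
Il2ra: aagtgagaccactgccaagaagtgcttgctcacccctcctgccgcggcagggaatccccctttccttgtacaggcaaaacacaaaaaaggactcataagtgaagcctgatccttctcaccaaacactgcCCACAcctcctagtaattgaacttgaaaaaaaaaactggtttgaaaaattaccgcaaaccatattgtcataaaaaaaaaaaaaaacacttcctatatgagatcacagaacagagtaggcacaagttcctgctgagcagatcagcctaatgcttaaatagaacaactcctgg
Gzma: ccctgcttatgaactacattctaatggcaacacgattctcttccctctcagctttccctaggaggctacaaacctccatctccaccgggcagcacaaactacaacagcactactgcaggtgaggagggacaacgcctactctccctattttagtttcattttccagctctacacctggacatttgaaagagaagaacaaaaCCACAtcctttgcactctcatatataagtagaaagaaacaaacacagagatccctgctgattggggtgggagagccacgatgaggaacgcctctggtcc
Tnfsf14: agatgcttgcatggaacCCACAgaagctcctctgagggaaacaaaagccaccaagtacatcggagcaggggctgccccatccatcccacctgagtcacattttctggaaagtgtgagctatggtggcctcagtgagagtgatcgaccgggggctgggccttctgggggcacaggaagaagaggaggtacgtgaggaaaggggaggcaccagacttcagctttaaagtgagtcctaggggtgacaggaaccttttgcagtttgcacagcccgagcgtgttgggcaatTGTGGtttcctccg

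The Gzmb window held 3 RUNX cores and 1 STAT palindrome, the Il2ra window 1 core, the Gzma window 1 core and the Tnfsf14 window 2 cores. Windows were on hand for 10114 tested genes, of which 8.33% held the palindrome and 56.2% the core. The palindrome was in 8.45% of the 71 windows of called higher genes and in 7.22% of the 97 of called lower genes, and the core in 67.6% and 70.1%. These are counts of letters in a short window and were not tested.

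Genes of the Treg signature were higher wherever they were called. Of 32 tested members 14 were called higher and 0 lower, or 43.75% against the 1.76% of all genes, with a median difference of 1.00 against -0.027 over all genes, and 30 members were positive. Leaving out any one of the 6 arrays left 11 to 13 called. Foxp3 and its reporter defined the sort, so the direction of this list is not independent of it. The called members include the markers Foxp3, Il2ra, Gzmb and Ctla4. This list and those below were chosen with earlier results of these data known, so their shares describe the lists and are not separate support. For comparison with each count below, 0.751% of all genes were called higher, 1.01% lower, and 44.2% were positive.

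Itgae encodes the alpha E integrin chain (CD103) that binds E-cadherin on epithelium. It had 12.84, 12.94 and 13.06 in Foxp3+ cells and 9.94, 9.91 and 9.72 in Foxp3- cells, with hardly any spread in either group, and was 8.53-fold higher (3.09 ± 0.50, adjusted p = 0.00168). Gpr83, a peptide receptor that marks Treg cells, had 9.47, 9.89 and 9.98 in Foxp3+ cells and 6.63, 6.37 and 7.22 in Foxp3- cells (3.04 ± 0.28, adjusted p = 4.64e-06). Klrg1, a lectin-like inhibitory receptor of terminally differentiated cells, was abundant in both groups, with 14.01, 12.98 and 13.71 in Foxp3+ cells and 11.79, 10.59 and 11.28 in Foxp3- cells (2.35 ± 0.33, adjusted p = 0.000531). Array 1 was highest and array 2 lowest in both groups, and within each number the groups were more than 2 log2 units apart.

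Plagl1, a zinc finger regulator of growth, had 9.03, 9.94 and 9.16 in Foxp3+ cells against 7.01, 7.11 and 7.16 in Foxp3- cells (2.29 ± 0.38, adjusted p = 0.00225). The other 2 probe sets of the gene gave -0.078 and 0.053, and the call was lost when all 3 were averaged. Members that did not pass the test include Nrp1 (0.03), Nt5e (0.11) and Icos (0.11 ± 0.25), the last of which was near the top of the scale in both groups, at 14.26, 14.06 and 14.14 in Foxp3+ cells and 14.12, 13.97 and 14.02 in Foxp3- cells. Penk differed by 1.43 (adjusted p = 0.0523) and Cd83, 1 of the 2 negative members, by -0.73.

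IL-2 receptor and STAT5 pathway genes were called in both directions: of 18 tested, 2 were called higher (Il2ra and Socs2) and 2 lower (Il2 and Pim2), with a median of 0.057. The ligand Il2 had 5.96, 6.20 and 5.82 in Foxp3+ cells, all below the filter, against 7.06, 7.00 and 7.07 in Foxp3- cells, and was at least 2.07-fold lower (-1.05 ± 0.19, adjusted p = 0.00467; not called without number 1 or 3 of both groups, up to 0.139). Socs2, a cytokine-induced inhibitor of STAT5 signalling, had 10.90, 10.94 and 10.89 in Foxp3+ cells, against 8.07, 8.51 and 7.84 in Foxp3- cells, and was 6.84-fold higher (2.77 ± 0.38, adjusted p = 0.000329). The kinase gene Pim2, itself a cytokine target, ran the other way, with 7.57, 7.55 and 7.27 in Foxp3+ cells and 9.04, 8.36 and 8.24 in Foxp3- cells (-1.08 ± 0.26, adjusted p = 0.0368). It passed without only 1 of the 6 arrays, Foxp3- array 3, with adjusted p up to 0.266 in the rest.

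The beta chain gene Il2rb had 9.67, 9.65 and 10.00 in Foxp3+ cells and 8.77, 8.52 and 8.92 in Foxp3- cells. The groups did not overlap, but the difference of 1.03 ± 0.37 missed the threshold with the pooled spread (adjusted p = 0.278) and passed it in the 6 arrays alone (0.0065). Stat5a (-0.11 ± 0.46) and Stat5b (-0.27 ± 0.27) overlapped between the groups.

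Among 16 suppressor effector genes tested, 4 were called higher (Gzmb, Ctla4, Entpd1 and Pdcd1lg2) and 0 lower, with a median of 0.28. With 1 array left out, 1 to 4 members were called. Entpd1, the ectoenzyme CD39 that degrades extracellular ATP, had 7.85, 7.39 and 7.87 in Foxp3+ cells against 6.62, 6.16 and 6.45 in Foxp3- cells (1.29 ± 0.28, adjusted p = 0.0164); the call ended without Foxp3+ array 1 or 3 or Foxp3- array 2 or 3 (adjusted p up to 0.1). Pdcd1lg2, the PD-1 ligand PD-L2, had 9.28, 9.33 and 9.21 in Foxp3+ cells against 8.34, 8.30 and 7.80 in Foxp3- cells (1.13 ± 0.23, adjusted p = 0.0102, and 0.0788 without Foxp3- array 3). Pdcd1lg2 was not called when both arrays of any number were left out (adjusted p up to 0.202). The ligand gene was thus higher and its receptor gene Pdcd1 lower on the same Foxp3+ arrays. Pooled RNA cannot show whether the same cells carried both changes.

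Il10, an anti-inflammatory cytokine, stood just above the filter in both groups, at 6.54, 6.61 and 6.58 in Foxp3+ cells and 6.54, 6.45 and 6.46 in Foxp3- cells (0.09 ± 0.41). Itgb8, the integrin chain that activates latent TGF-beta, was below the filter on all 6 arrays. Tgfb1 had 6.89, 7.23 and 7.04 in Foxp3+ cells and 6.78, 7.08 and 6.82 in Foxp3- cells (0.16 ± 0.14). The differences of these 3 genes were smaller than their standard errors or close to them.

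Cytotoxic genes split. Of 18 tested, Gzmb and Klrg1 were called higher and Gzma and Klrd1 lower, while the median was -0.40 and 15 members were negative. Gzma, a tryptase of killer granules, had 9.10, 11.03 and 9.91 in Foxp3+ cells against 12.02, 12.03 and 12.01 in Foxp3- cells, and was 4.02-fold lower (-2.01 ± 0.34, adjusted p = 0.00292). The Foxp3- arrays agreed to 0.02 log2 units or less, while Foxp3+ array 1 was lowest and array 2 highest. The Gzma call ended without number 1 or 3 of both groups (adjusted p up to 0.0752). Klrd1, the CD94 subunit of NKG2 receptors, showed the same order, with 7.02, 9.58 and 8.43 in Foxp3+ cells against 10.86, 10.92 and 10.84 in Foxp3- cells (-2.53 ± 0.59, adjusted p = 0.0308). Its call ended when any array but Foxp3+ array 2 was left out (adjusted p up to 0.214), and its difference was -1.87 without Foxp3+ array 1 and -3.15 without Foxp3+ array 2. Ccl5, a chemokine of effector and killer cells, was also ordered so in Foxp3+ cells, with 9.41, 11.91 and 10.96 in Foxp3+ cells against 13.26, 12.85 and 13.19 in Foxp3- cells (-2.34 ± 0.49, adjusted p = 0.014). It was not called without Foxp3+ array 1 (difference -1.66, adjusted p = 0.0831), Foxp3- array 1 (0.0768) or Foxp3- array 3 (0.0636).

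Perforin, Prf1, was near the filter in both groups (6.46, 6.58 and 6.43 in Foxp3+ and 6.35, 6.79 and 6.51 in Foxp3- cells), and Gzmk overlapped (-0.85 ± 0.36). Of 10 markers of CD8 and NK cells on the array, 7 were tested and 0 called by limma (0 at an unadjusted p under 0.05, 0 in the 6 arrays alone). Their summed linear intensity was 1724, 2433 and 2208 in Foxp3+ and 2757, 2326 and 2283 in Foxp3- arrays, a ratio of 0.63, 1.05 and 0.97 by number. Within Foxp3+ arrays the sum was lowest on number 1 and highest on number 2, the order of Gzma, Klrd1 and Ccl5. Cd8b1 lay below the filter on all 6 arrays. Cd8a lay above it on all 6, with 6.81, 7.58 and 7.32 in Foxp3+ and 6.85, 7.26 and 7.29 in Foxp3- cells. The NK receptor Ncr1 had 5.89, 7.23 and 6.46 in Foxp3+ and 6.40, 7.34 and 6.19 in Foxp3- cells, with array 2 highest in both groups. The part of such cells in the lower Gzma, Klrd1 and Ccl5 was not tested.

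The few TNF receptors that were called were higher, and the few TNF ligands that were called were lower. Of 13 receptors tested 2 were called higher and 0 lower (15.4%, median 0.11, 9 positive and 4 negative). Of 12 ligands 0 were called higher and 2 lower (16.7%, median -0.32, 10 negative). Among all genes 1.76% were called and 44.2% were positive. Tnfrsf9 (4-1BB), a costimulatory receptor of activated T cells, had 10.30, 10.26 and 10.46 in Foxp3+ cells against 8.10, 8.69 and 8.70 in Foxp3- cells (1.84 ± 0.32, adjusted p = 0.0036). It was not called without number 1 or 3 of both groups (adjusted p up to 0.103). Tnfrsf4 (OX40) had 11.29, 11.41 and 11.44 in Foxp3+ cells against 10.29, 10.30 and 10.38 in Foxp3- cells (1.06 ± 0.24, adjusted p = 0.0266); each of the 6 arrays ended the call when left out (adjusted p up to 0.12). Tnfrsf18 (GITR) did not overlap, with 11.37, 11.34 and 11.63 in Foxp3+ cells and 10.71, 10.32 and 10.47 in Foxp3- cells. It was not called with the pooled spread (0.95 ± 0.33, adjusted p = 0.257) and passed in the 6 arrays alone (0.00733).

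Beside Tnfsf14, the ligand gene called lower was Tnfsf13b, the B cell survival factor BAFF, with 5.86, 6.34 and 6.06 in Foxp3+ cells against 7.85, 7.63 and 7.47 in Foxp3- cells (at least 2.96-fold lower; -1.57 ± 0.22, adjusted p = 0.00051). Tnfsf11 (RANKL) had 9.88, 9.43 and 9.68 in Foxp3+ cells against 11.09, 11.02 and 10.96 in Foxp3- cells (-1.36 ± 0.41, adjusted p = 0.133), and Tnfsf8 (CD30 ligand) had 6.91, 7.40 and 6.70 in Foxp3+ cells against 8.27, 8.33 and 8.23 in Foxp3- cells (-1.27 ± 0.35, adjusted p = 0.0928). Neither passed with the pooled spread, although their groups were apart on every array and both passed in the 6 arrays alone (0.00127 and 0.00513). Cd40lg overlapped (-0.08 ± 0.16).

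Of 19 coinhibitory and costimulatory receptors tested, Ctla4 was called higher and Pdcd1, Cd96 and Slamf7 lower, with a median of -0.52. Cd96, a receptor for nectin family ligands, had 8.85, 9.20 and 9.01 in Foxp3+ cells and 10.83, 10.70 and 10.80 in Foxp3- cells (-1.75 ± 0.23, adjusted p = 0.0002), with little spread. Slamf7 was close to the filter in Foxp3+ cells, with 6.17, 6.45 and 6.30 in Foxp3+ cells against 7.08, 6.85 and 7.13 in Foxp3- cells (-0.71 ± 0.16, adjusted p = 0.0203). That call ended without array 1 or 3 of either group (adjusted p up to 0.125). Cd28 overlapped (-0.39 ± 0.40).

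Genes of follicular helper T cells, which guide B cells in germinal centres, were lower where they were called. Of 17 tested, 0 were called higher and 4 lower (Pdcd1, Bcl6, Tox2 and Pou2af1), with a median of -0.38. The 4 are 23.5% of the list, against 1.01% of all genes called lower. Bcl6, the transcriptional repressor that directs this lineage, had 6.69, 7.05 and 6.89 in Foxp3+ cells against 8.73, 8.61 and 8.21 in Foxp3- cells, and was 3.12-fold lower (-1.64 ± 0.31, adjusted p = 0.00574). It was not called when both arrays of any number were left out (adjusted p up to 0.187). Tox2, a nuclear protein of the same cells, had 10.37, 10.08 and 9.94 in Foxp3+ cells against 12.73, 12.53 and 12.69 in Foxp3- cells (-2.52 ± 0.55, adjusted p = 0.0193). The groups were far apart relative to their spread, yet each array ended the call when left out (adjusted p up to 0.098); the standard error of 0.55 comes from all 23 arrays. Pou2af1, a coactivator of octamer factors, had 6.53, 5.85 and 6.25 in Foxp3+ cells against 8.94, 8.14 and 8.43 in Foxp3- cells (-2.30 ± 0.40, adjusted p = 0.0036).

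Il21, the cytokine of these cells, lay below the filter on all Foxp3+ arrays and above it on all Foxp3- arrays (5.62, 5.91 and 5.44 in Foxp3+ cells against 7.62, 8.07 and 7.66 in Foxp3- cells), with a difference of -2.12 ± 0.57 that missed the threshold (adjusted p = 0.0755, and 0.000406 in the 6 arrays alone). Their homing receptor Cxcr5 overlapped between the groups (-0.19 ± 0.46).

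Helper lineage genes were called in the lower direction only. The share of all genes called lower was 1.01%. Counts were 2 of 12 for Th1 genes (16.7%, Cxcr6 and Ccl5), 1 of 7 for Th2 genes (14.3%, Il4) and 3 of 12 for Th17 genes (25%, Il1r1, Tmem176a and Tmem176b). Of the cytokines that define these lineages only Il4 was among them. Tbx21, which directs Th1 cells, had 8.07, 7.49 and 8.19 in Foxp3+ cells and 9.40, 7.78 and 9.07 in Foxp3- cells (-0.83 ± 0.47). Ifng was well expressed in both, with 10.21, 10.42 and 9.35 in Foxp3+ cells and 10.76, 10.57 and 9.68 in Foxp3- cells (-0.34 ± 0.34). Il17a (-0.25 ± 0.27) and Gata3 (0.52 ± 0.31) overlapped.

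Il4 was near the filter, with 5.48, 5.59 and 5.39 in Foxp3+ cells against 6.40, 6.53 and 5.97 in Foxp3- cells (-0.81 ± 0.18, adjusted p = 0.0218). Il1r1, the receptor for interleukin 1, had 7.20, 7.39 and 7.02 in Foxp3+ cells against 7.99, 8.12 and 7.59 in Foxp3- cells (-0.69 ± 0.16, adjusted p = 0.0246). The neighbouring membrane protein genes Tmem176a (-1.18 ± 0.29, adjusted p = 0.041) and Tmem176b (-1.57 ± 0.34, adjusted p = 0.0201) were the only called genes of the homeostatic comparison whose arrays overlapped. Each of these 4 calls ended in 4 of the 6 fits that left out an array (adjusted p up to 0.125, 0.169, 0.268 and 0.154). In the 6 arrays alone Il1r1 (0.0501), Tmem176a (0.0899) and Tmem176b (0.0854) were not called, and Tmem176a was not called after quantile (0.0737) or loess normalization (0.0809).

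Of 31 lineage and effector transcription factors tested, Ikzf2, Ikzf4 and Prdm1 were called higher and Id2 and Bcl6 lower. Ikzf2 (Helios) and Ikzf4 (Eos) are Ikaros family partners of Foxp3 in Treg cells. Ikzf2 was abundant in both groups, with 12.50, 12.33 and 12.39 in Foxp3+ cells against 10.74, 10.86 and 10.90 in Foxp3- cells (1.57 ± 0.15, adjusted p = 5.26e-06). Ikzf4 had 10.45, 10.49 and 10.62 in Foxp3+ cells against 8.83, 8.81 and 8.81 in Foxp3- cells (1.70 ± 0.34, adjusted p = 0.00876, and 0.0509 without Foxp3+ array 3), and it was not called when both arrays of any number were left out (adjusted p up to 0.155). Prdm1 (Blimp-1), a repressor of effector and effector-like Treg cells that opposes Bcl6, had 10.48, 9.22 and 10.10 in Foxp3+ cells against 8.80, 8.04 and 8.20 in Foxp3- cells (1.59 ± 0.34, adjusted p = 0.0156). Its call ended without Foxp3+ array 1 or 3 or Foxp3- array 2 or 3 (adjusted p up to 0.12).

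Id2, an inhibitor of E proteins that favours effector differentiation, had 10.43, 10.96 and 10.87 in Foxp3+ cells against 12.41, 12.40 and 12.61 in Foxp3- cells (-1.73 ± 0.31, adjusted p = 0.00447; not called without number 1 or 3 of both groups, up to 0.114). Bach2, a repressor of effector genes, overlapped (0.49 ± 0.41). Epas1 (HIF-2 alpha), a hypoxia-responsive factor outside the lists, had 7.21, 7.47 and 7.14 in Foxp3+ cells against 9.62, 9.10 and 9.63 in Foxp3- cells and was 4.51-fold lower (-2.17 ± 0.24, adjusted p = 3.03e-05).

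Receptors for tissue homing were called in both directions: of 19 tested, Gpr15 was called higher and Cxcr6 and Cx3cr1 lower, with a median of -0.061. Cxcr6, the receptor for the membrane chemokine Cxcl16 on effector cells, had 6.11, 6.68 and 6.33 in Foxp3+ cells against 10.66, 8.94 and 9.64 in Foxp3- cells, and was 10.4-fold lower (-3.37 ± 0.37, adjusted p = 3.54e-05). Cx3cr1, the fractalkine receptor, had 6.53, 7.21 and 6.95 in Foxp3+ cells against 8.64, 8.02 and 8.15 in Foxp3- cells (-1.38 ± 0.19, adjusted p = 0.000484). Gpr15, which guides T cells to the large intestine, had 11.64, 10.69 and 11.26 in Foxp3+ cells against 10.16, 8.85 and 9.56 in Foxp3- cells (1.68 ± 0.31, adjusted p = 0.00478). The Gpr15 groups came close, and each Foxp3+ array exceeded its same-number Foxp3- array by more than 1 log2 unit.

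The lymph node receptor Ccr7 overlapped between the groups (-0.06 ± 0.47). Cxcr3, a receptor for interferon-induced chemokines, was 12.59, 12.10 and 12.72 in Foxp3+ cells and 12.08, 11.06 and 12.06 in Foxp3- cells, and the difference of 0.74 ± 0.33 did not pass. Of 13 integrin chains tested, Itgae was the one called. Its partner chain Itgb7 had 11.23, 10.88 and 11.20 in Foxp3+ cells and 10.96, 10.67 and 10.93 in Foxp3- cells (0.25 ± 0.44). Itga4 differed by -1.03 ± 0.30 (adjusted p = 0.11, and 0.0256 in the 6 arrays alone). Of 17 genes of naive and central cells, only Cd55, a complement regulator, was called, with 7.78, 7.89 and 7.51 in Foxp3+ cells against 6.16, 6.62 and 6.13 in Foxp3- cells (1.42 ± 0.22, adjusted p = 0.00124). Of 12 chemokine genes, only Ccl5 was called. Shares called were 7.69% of integrin, 5.88% of naive and central and 8.33% of chemokine genes, against 1.76% of all genes. Each of these shares rests on 1 called gene.

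Phosphodiesterases, which degrade cyclic AMP or cyclic GMP and thereby set T cell inhibition by these messengers, included both higher and lower members. Of 16 cyclic nucleotide enzymes tested, Pde2a was called higher and Pde3b, Pde7a and Pde4d lower, with a median of -0.16. Pde3b had 7.96, 8.52 and 8.40 in Foxp3+ cells against 11.27, 11.09 and 11.40 in Foxp3- cells, and was 7.8-fold lower (-2.96 ± 0.43, adjusted p = 0.000633). Pde7a had 7.82, 8.20 and 7.72 in Foxp3+ cells against 11.02, 10.67 and 10.76 in Foxp3- cells, 7.5-fold lower (-2.91 ± 0.23, adjusted p = 5.31e-07). Both were far apart relative to their spread and kept their call without any one array.

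Pde4d had 7.15, 7.20 and 7.14 in Foxp3+ cells against 8.13, 7.96 and 8.30 in Foxp3- cells (-0.97 ± 0.20, adjusted p = 0.012), with the call lost without array 1 or 3 of either group (adjusted p up to 0.0765) and over the mean of its probe sets (0.118). Pde2a had 11.09, 11.05 and 11.14 in Foxp3+ cells against 9.78, 10.08 and 9.81 in Foxp3- cells (1.21 ± 0.30, adjusted p = 0.045). Its call was lost with the array number as a block (adjusted p = 0.0763), after quantile normalization (0.053) and when each of the 6 arrays was left out in turn (adjusted p up to 0.19). Pde4b, another cyclic AMP phosphodiesterase, overlapped between the groups (-0.10 ± 0.35).

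T cell receptor signalling genes leaned lower in Foxp3+ cells, with 23 of 27 tested members negative and a median of -0.24. Of the list 14.8% were positive, against 44.2% of all genes. Only Ptpn22 was called, or 3.70% against 1.76% of all genes. Ptpn22, a phosphatase that dampens receptor signalling, had 9.25, 8.62 and 9.13 in Foxp3+ cells against 11.23, 11.00 and 11.13 in Foxp3- cells, and was 4.36-fold lower (-2.12 ± 0.36, adjusted p = 0.00227). Zap70, a proximal kinase, had 9.68, 9.61 and 9.91 in Foxp3+ cells against 10.47, 10.27 and 10.64 in Foxp3- cells (-0.73 ± 0.20, adjusted p = 0.0855), and the adaptor Lat had 10.43, 10.09 and 10.36 in Foxp3+ cells against 11.27, 10.90 and 11.07 in Foxp3- cells (-0.79 ± 0.49, adjusted p = 0.993). Their arrays did not overlap between the groups, and Zap70 and Lat passed in the 6 arrays alone (0.0214 and 0.0166). Of the 10 CD4 T cell identity genes, 9 were negative and 0 called by limma (median -0.37; 0 at an unadjusted p under 0.05 and 2 called in the 6 arrays alone), with Cd4 at 9.59, 9.66 and 9.66 in Foxp3+ and 10.62, 10.13 and 10.44 in Foxp3- cells.

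Genes induced by antigen receptor signals were evenly split (22 tested, 1 called higher, 1 lower, median -0.020). Dusp4, a phosphatase of MAP kinases, had 11.67, 10.95 and 11.62 in Foxp3+ cells against 8.48, 7.90 and 8.20 in Foxp3- cells, and was 9.3-fold higher (3.22 ± 0.63, adjusted p = 0.00809). It was not called when both arrays of any number were left out (adjusted p up to 0.148). Egr2, a zinc finger factor tied to T cell tolerance, had 7.14, 7.46 and 7.72 in Foxp3+ cells against 9.85, 9.27 and 9.65 in Foxp3- cells, 4.43-fold lower (-2.15 ± 0.31, adjusted p = 0.00051). Nr4a1, which reports receptor stimulation, overlapped, with array 2 highest in both groups (9.61, 10.73 and 9.48 in Foxp3+ and 8.83, 10.45 and 8.86 in Foxp3- cells).

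Of 19 TGF-beta pathway genes tested, only Tgfbr3 was called (5.26%, against 1.76% of all genes, median -0.030). Tgfbr3 (betaglycan), a coreceptor that presents the ligand, had 7.68, 8.23 and 7.59 in Foxp3+ cells against 10.95, 10.05 and 10.33 in Foxp3- cells, and was 6.09-fold lower (-2.61 ± 0.51, adjusted p = 0.00763). It was not called without Foxp3+ array 3 (0.0505) or Foxp3- array 1 (0.0622). Tgfbr2, the ligand-binding signalling chain, had 10.98, 10.80 and 11.06 in Foxp3+ cells against 12.51, 12.09 and 12.40 in Foxp3- cells, with non-overlapping groups and an adjusted p of 0.05 at the threshold, not called (-1.39 ± 0.35). Tgfbr1, its partner kinase, leaned the other way (0.87 ± 0.31, adjusted p = 0.298), with 10.87, 10.57 and 10.84 in Foxp3+ and 9.90, 9.88 and 9.87 in Foxp3- cells. Tgfbr2 and Tgfbr1 passed in the 6 arrays alone (0.00139 and 0.00493).

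Cell cycle genes lay almost all above 0 in the comparison of Foxp3+ with Foxp3- cells, with 0 called. Of 49 tested, 48 were positive, against 44.2% of all genes, the median was 0.65 and 37 had arrays that did not overlap (75.5%, against 22.3% of all genes). At an unadjusted limma p under 0.05 there were 13 (26.5%, against 7.57% of all genes), and with the 6 arrays fitted alone 17 were called (34.7%, against 5.92% of all genes). Mki67, the proliferation antigen, had 11.97, 11.86 and 11.93 in Foxp3+ cells against 10.68, 11.75 and 10.40 in Foxp3- cells (0.98 ± 0.67). Top2a, the topoisomerase of dividing cells, had 11.66, 11.60 and 11.58 in Foxp3+ cells against 10.65, 11.16 and 10.44 in Foxp3- cells (0.87 ± 0.40), and Cdk1, the mitotic kinase, 10.15, 10.03 and 10.13 in Foxp3+ cells against 9.12, 9.66 and 8.92 in Foxp3- cells (0.87 ± 0.50). The Foxp3+ arrays were nearly level, and among Foxp3- arrays number 2 was the highest for all 3 genes and arrays 1 and 3 lower. Summed over the list, linear intensity was 91538, 83080 and 93488 in Foxp3+ arrays, against 56842, 71737 and 55203 in Foxp3- arrays, a ratio of 1.61, 1.16 and 1.69 by number. Ctla4 had the same high Foxp3- array. Of 11 cell cycle inhibitors tested 0 were called by limma (median 0.023), 3 had an unadjusted p under 0.05, and 0 were called in the 6 arrays alone.

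Among 21 glycolysis and hypoxia genes tested, Slc2a3 and Hk2 were called higher and 0 lower (median 0.23). Slc2a3, a glucose transporter, had 11.19, 11.03 and 11.14 in Foxp3+ cells against 10.29, 9.86 and 9.95 in Foxp3- cells (1.09 ± 0.23, adjusted p = 0.014), and Hk2, which traps glucose by phosphorylation, 8.86, 9.21 and 8.84 in Foxp3+ cells against 7.66, 8.34 and 7.90 in Foxp3- cells (1.00 ± 0.25, adjusted p = 0.0434). Leaving out 1 array left 0 or 1 of them called (adjusted p up to 0.0763 and 0.269), and without the filter Hk2 was not called (0.0503). Slc2a1 (0.40 ± 0.26) and Ldha (0.23 ± 0.21) did not pass.

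Interferon-induced genes did not share a direction: of 26 tested, the GTPase genes Gbp3 and Gbp2 were called higher and Oasl2 lower (median -0.079). Gbp3 had 11.94, 12.05 and 12.04 in Foxp3+ cells against 10.13, 10.65 and 10.32 in Foxp3- cells (1.64 ± 0.22, adjusted p = 0.00027). Oasl2, of the antiviral oligoadenylate synthetase family, had 6.04, 6.81 and 6.48 in Foxp3+ cells against 7.45, 7.88 and 7.74 in Foxp3- cells (-1.24 ± 0.21, adjusted p = 0.00227). Iigp1, a further interferon-inducible GTPase outside the list, had 9.71, 9.61 and 9.85 in Foxp3+ cells against 6.99, 7.47 and 7.58 in Foxp3- cells, 5.2-fold higher (2.38 ± 0.27, adjusted p = 3.76e-05). Gbp2 differed by 1.11 ± 0.26 (adjusted p = 0.0375) and kept its call in 1 of the 6 fits that left out an array, without Foxp3+ array 1 (adjusted p up to 0.253 in the rest, and 0.073 over the mean of its probe sets). Ifit1 (-0.66 ± 0.27) and Irf7 (-0.52 ± 0.33) did not pass with the pooled spread and passed in the 6 arrays alone (0.0358 and 0.0402).

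No member was called by limma among 24 cholesterol and fatty acid synthesis genes (median 0.053), 14 Bcl2 family genes (0.071), 12 heat shock genes (0.16) and 8 stromal and endothelial markers (-0.10). In that order of lists, 3, 1, 1 and 0 members had an unadjusted p under 0.05, and 1, 1, 1 and 0 were called in the 6 arrays alone. Mcl1 (0.14 ± 0.22), Bcl2l11 (-0.12 ± 0.49) and Hmgcs1 (0.09 ± 0.36) overlapped between the groups.

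**Figure D3:**
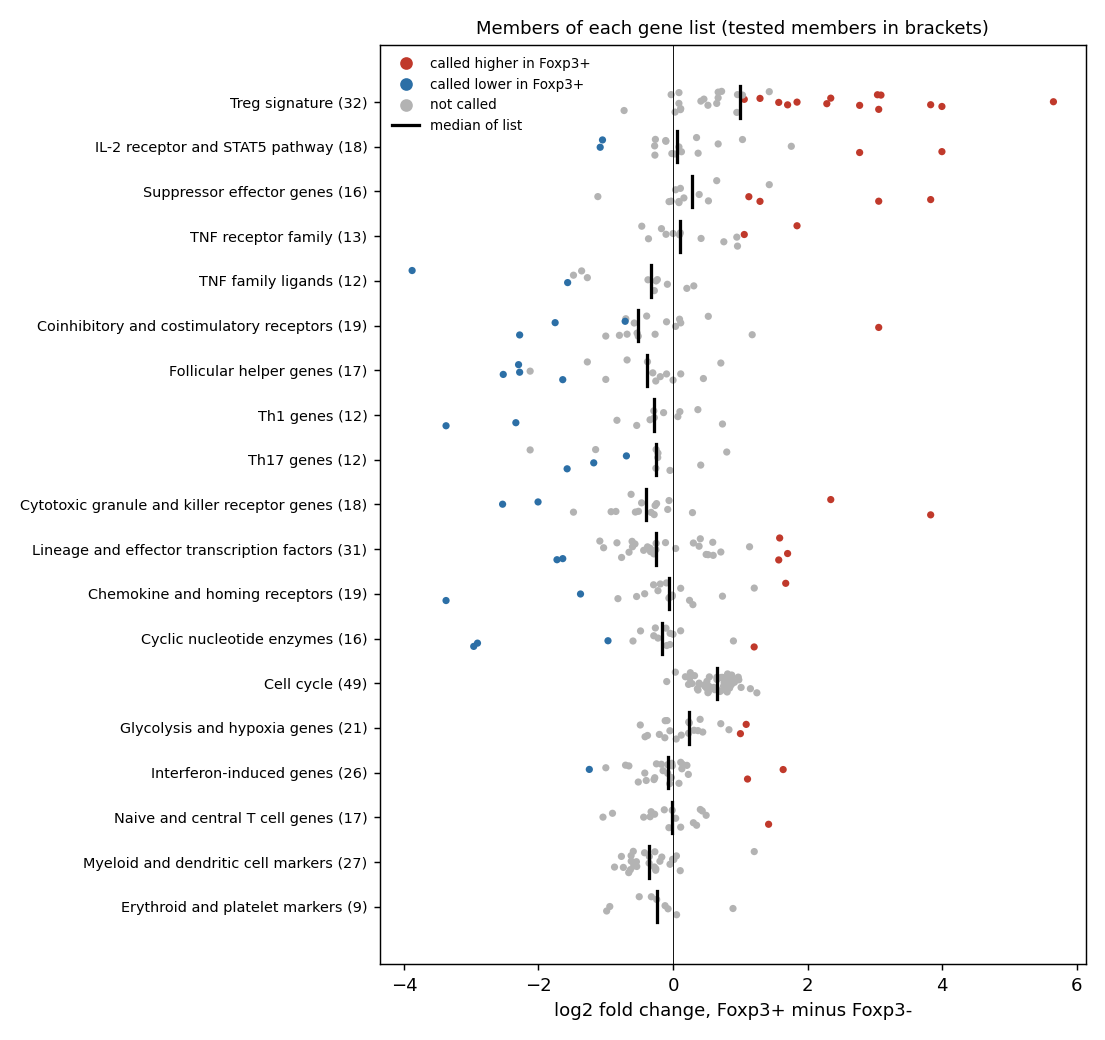
Log2 fold change (Foxp3+ minus Foxp3-, horizontal axis) of each tested member of 19 gene lists; red points were called higher in Foxp3+ cells, blue points lower, grey points were not called, and black bars are list medians. The Treg signature has its median at 1.00 and no called member below 0, the cell cycle list lies almost wholly above 0 with none called, and the cytotoxic list has called members at both ends.

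Some of the most changed genes are better known outside T cells. Neb, which encodes the muscle thin filament protein nebulin, had 8.92, 8.64 and 8.87 in Foxp3+ cells against 4.70, 5.27 and 4.67 in Foxp3- cells, and was at least 15.2-fold higher (3.93 ± 0.25, adjusted p = 3.39e-08). Itih5, an inter-alpha-trypsin inhibitor heavy chain, had 8.60, 9.24 and 9.22 in Foxp3+ cells against 5.67, 5.83 and 5.57 in Foxp3- cells (3.33 ± 0.34, adjusted p = 1.56e-05), and Nxpe4 had 8.91, 8.90 and 9.11 in Foxp3+ cells against 4.89, 6.38 and 5.57 in Foxp3- cells (3.36 ± 0.38, adjusted p = 4.22e-05). All 3 lay below the filter in Foxp3- cells on average, so their folds are lower bounds.

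In the lower direction, Ryr1, the calcium release channel of skeletal muscle, had 5.31, 6.06 and 5.78 in Foxp3+ cells against 8.67, 8.58 and 8.75 in Foxp3- cells, at least 7.74-fold lower (-2.95 ± 0.19, adjusted p = 3.39e-08). Arfgef3, a relative of the guanine exchange factors for ARF proteins, had 4.41, 4.75 and 4.73 in Foxp3+ cells against 7.73, 7.73 and 7.31 in Foxp3- cells (-2.96 ± 0.22, adjusted p = 3.21e-07), and Ppic (cyclophilin C) 6.58, 6.23 and 6.28 in Foxp3+ cells against 9.56, 9.10 and 8.82 in Foxp3- cells (-2.80 ± 0.26, adjusted p = 3.43e-06). These groups were more than 2 log2 units apart on every array. Tdrp (-3.02 ± 0.42), the ubiquitin-conjugating enzyme gene Ube2e2 (-2.74 ± 0.28), Phactr2 (-2.66 ± 0.48), Lrrc75b (-2.51 ± 0.35) and the sialyltransferase gene St6galnac2 (-2.46 ± 0.24) were called lower too. Gpm6b, a membrane glycoprotein gene, differed by -2.98 ± 0.70 (adjusted p = 0.0341), but lost its call with the array number as a block (adjusted p = 0.0531), over the mean of its probe sets (0.261) and when each of the 6 arrays was left out in turn (adjusted p up to 0.204).

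Transcripts of other cell types were measured on the same arrays. Of 15 B and plasma cell markers tested, Ighm and H2-Ob were called higher. Ighm, the heavy chain of immunoglobulin M, had 11.59, 11.65 and 11.85 in Foxp3+ cells against 8.06, 8.66 and 8.74 in Foxp3- cells (3.21 ± 0.40, adjusted p = 0.000148). Of its 11 probe sets 2 differed, by 3.21 and 3.81, and the others by 0.34 or less. H2-Ob, a chain of the class II loading cofactor of B cells, had 9.41, 9.10 and 9.53 in Foxp3+ cells against 5.63, 7.45 and 6.12 in Foxp3- cells (2.95 ± 0.37, adjusted p = 0.000154). The defining B cell genes Cd79a, Fcrla and Ebf1 lay below the filter on all 6 arrays, and Ms4a1 had 6.71, 7.11 and 7.03 in Foxp3+ cells and 6.59, 6.55 and 6.70 in Foxp3- cells (0.34 ± 0.32). The summed list was 6738, 6826 and 7654 in Foxp3+ arrays against 3378, 3947 and 3608 in Foxp3- arrays. Without Ighm it was 3653, 3616 and 3965 against 3112, 3542 and 3181, a ratio of 1.17, 1.02 and 1.25 by number. H2-Ob is still part of that sum, and whether an excess remains without both genes was not tested.

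Myeloid and red cell transcripts varied with the array number more than with the group. Of 27 myeloid and dendritic markers tested 0 were called by limma (2 at an unadjusted p under 0.05, 1 in the 6 arrays alone, and 1, S100a9, with the array number as a block), 23 were negative and the median was -0.36. Lyz2, lysozyme of myeloid cells, had 9.43, 11.51 and 10.79 in Foxp3+ cells and 10.42, 12.26 and 11.03 in Foxp3- cells, and Csf1r, the macrophage growth factor receptor, 9.02, 11.52 and 10.74 in Foxp3+ cells and 10.31, 12.10 and 11.17 in Foxp3- cells. Array 2 was highest and array 1 lowest in both groups. The summed list was 16846, 27597 and 21742 in Foxp3+ arrays, against 20012, 36705 and 22350 in Foxp3- arrays, a ratio of 0.84, 0.75 and 0.97 by number. The integrin gene Itgam (CD11b), used in the gate, lay below the filter on all 6 arrays. Itgax (CD11c), of the same gate, had 6.08, 7.26 and 6.48 in Foxp3+ cells and 6.43, 7.46 and 6.52 in Foxp3- cells. It lay below the filter only on Foxp3+ array 1 and was highest on array 2 of both groups. Of 9 erythroid and platelet markers 0 were called by limma (1 at an unadjusted p under 0.05, 0 in the 6 arrays alone, and 1, Car2, with the block). Alas2, the haem enzyme of red cell precursors, had 6.40, 10.25 and 9.63 in Foxp3+ cells and 7.76, 11.09 and 10.26 in Foxp3- cells. Lyz2, Csf1r and Alas2 were lower in the Foxp3+ array of every number and were not called with the block in the fit of all arrays; with the block in the 6 arrays alone, where 2078 genes were called, all 3 were called. All 220 called genes also differed in 1 direction within every array number, which follows from the lack of overlap for 218 of them. The part of host cells in the called genes was not tested.

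Immediate early genes, which respond to stimulation within minutes, also followed the number. Fos had 13.19, 13.69 and 9.82 in Foxp3+ cells and 13.13, 13.70 and 8.42 in Foxp3- cells and Jun 8.76, 9.95 and 6.05 in Foxp3+ cells and 8.73, 10.12 and 5.01 in Foxp3- cells, low on array 3 of both groups. Of 16 tested, only Ier3 was called (-1.24 ± 0.31, adjusted p = 0.047), and with the array number as a block (adjusted p = 0.0763) or without the filter (0.0585) it was not.

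**Figure D4:**
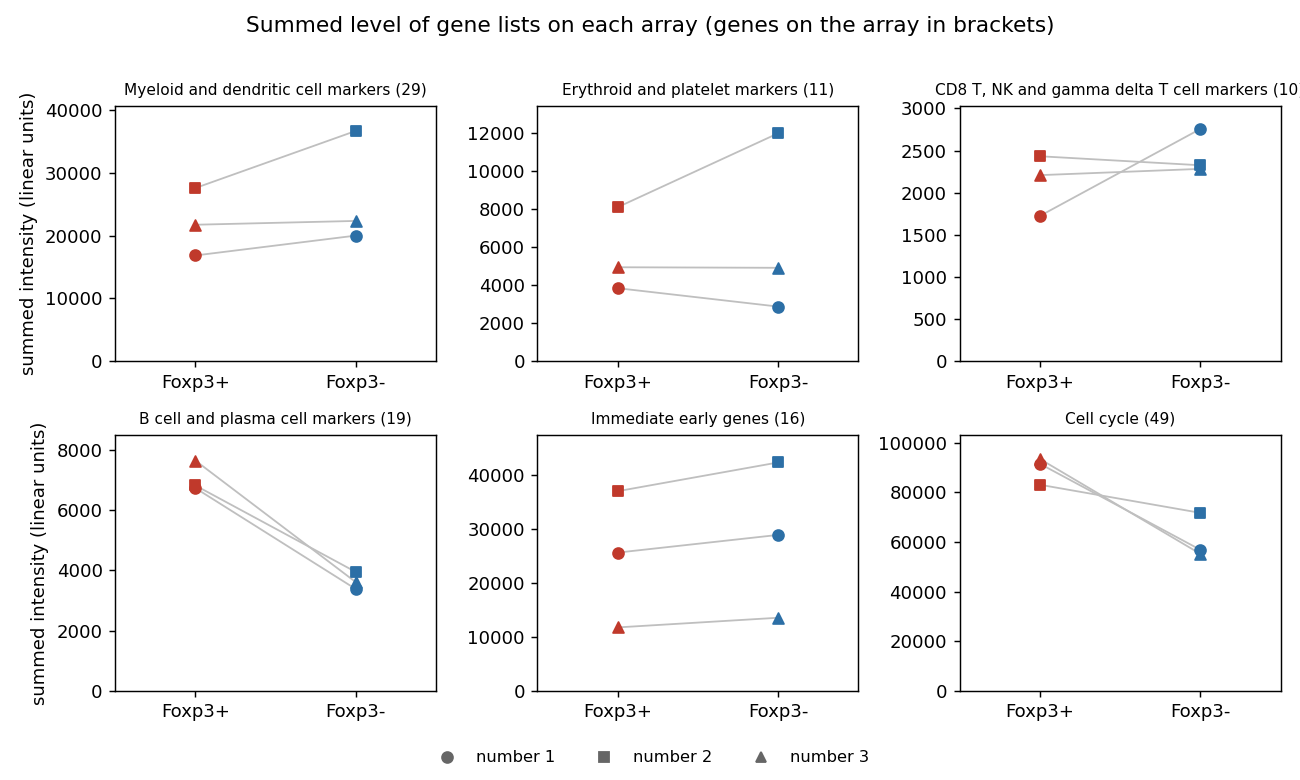
Summed linear intensity (vertical axis) of 6 gene lists on each homeostatic array, with Foxp3+ on the left and Foxp3- on the right; symbols give the array number and lines join equal numbers. Myeloid, erythroid and immediate early sums order the arrays by number in both groups. The B cell sum, which includes the called genes Ighm and H2-Ob, is higher on all Foxp3+ arrays. The cell cycle sum is 1.16 to 1.69 times higher in Foxp3+ cells.

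The homeostatic difference was then set against that between gut Treg and conventional cells. Of the 220 called genes, 93 were also called between LP Treg and LP Tconv, 90 of them in the same direction. The share of all genes called in the gut comparison is not given here, and both comparisons took each gene's spread from the same fit. The overlap is therefore a count and not independent agreement. A test of the difference between the differences called 97 of 12516 genes (0.775%), 27 with the homeostatic value higher and 70 lower, and 31 of the 97 were among the 220. Gzmb differed more in the homeostatic cells, by 3.83 ± 0.26 against 0.63 ± 0.31 in the gut (difference 3.20 ± 0.40, adjusted p = 0.000369). Its level was high in both gut groups, with means of 13.22 in LP Treg and 12.59 in LP Tconv cells. In homeostatic cells the means were 12.42 in Foxp3+ and 8.59 in Foxp3- arrays. Nxpe4 also differed more in homeostatic cells, by 3.36 ± 0.38 against 0.01 ± 0.47 in gut cells (difference 3.36 ± 0.60, adjusted p = 0.00771).

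The reverse held for Itgb8, with 0.09 ± 0.40 in homeostatic cells against 6.46 ± 0.48 in the gut (difference -6.37 ± 0.62, adjusted p = 3.68e-05). Il10 differed likewise, with 0.09 ± 0.41 in homeostatic cells against 3.98 ± 0.50 in gut cells (difference -3.90 ± 0.64, adjusted p = 0.00428). Klrg1 was higher in the Foxp3+ cells of both systems, by 2.35 ± 0.33 in homeostatic cells against 5.34 ± 0.41 in gut cells (adjusted p = 0.00706). Its mean was alike in homeostatic Foxp3+ (13.57) and LP Treg cells (13.38), and differed between homeostatic Foxp3- (11.22) and LP Tconv cells (8.04). The difference was also larger in the gut for Gpr15, 1.68 ± 0.31 in homeostatic cells against 4.00 ± 0.38 in gut cells (adjusted p = 0.0257). The same held for Ikzf2, 1.57 ± 0.15 in homeostatic cells against 2.82 ± 0.18 in gut cells (adjusted p = 0.0126). Il17a, a cytokine of Th17 cells, differed by -0.25 ± 0.27 in homeostatic cells and was far lower in LP Treg than in LP Tconv cells (-4.25 ± 0.33) (difference 4.00 ± 0.42, adjusted p = 7.68e-05).

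Matn2, which encodes the matrix protein matrilin 2, and Dhrs3, a retinal reductase gene, were called in opposite directions. Matn2 differed by -1.84 ± 0.27 in homeostatic cells and by 2.66 ± 0.33 in the gut, and Dhrs3 by -1.23 ± 0.26 and 2.15 ± 0.31. Matn2 was below the filter on all 6 homeostatic arrays, so its homeostatic value rests on dim signal, and Dhrs3 lost its homeostatic call without Foxp3+ array 1 or 3 or Foxp3- array 1 (adjusted p up to 0.097).

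Against the DEC comparison the test of the difference called 42 genes (0.336%), 10 with the homeostatic value higher and 32 lower, and 37 of them were among the 220. All genes together were shifted by -0.20 in this test; after quantile or cyclic loess normalization the shift was 0.032 or 0.027, and the split was 24 to 36 or 26 to 31. Foxp3 differed by 5.66 ± 0.30 in the homeostatic cells against 2.49 ± 0.28 in the DEC cells (difference 3.17 ± 0.41, adjusted p = 0.000658). The DEC CD25- arrays held Foxp3 at 6.92 to 8.48, above the 4.71 to 4.81 of homeostatic Foxp3- arrays, and that sort was by CD25. Il2ra, the gene of the DEC sort, differed by 4.00 ± 0.31 in homeostatic and 3.77 ± 0.29 in DEC cells (difference 0.23 ± 0.43, adjusted p = 0.895).

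Gzmb again differed more, by 3.83 ± 0.26 in homeostatic cells against 1.27 ± 0.24 in DEC cells (difference 2.56 ± 0.35, adjusted p = 0.00131). Several genes called lower in homeostatic Foxp3+ cells were not called in the DEC comparison. Tnfsf14 differed by -3.88 ± 0.26 in homeostatic cells against -0.76 ± 0.24 in DEC cells (adjusted p = 0.000286), Ryr1 by -2.95 ± 0.19 in homeostatic cells against -0.09 ± 0.17 in DEC cells (adjusted p = 2.49e-05) and Cxcr6 by -3.37 ± 0.37 in homeostatic cells against -0.10 ± 0.35 in DEC cells (adjusted p = 0.00625). Epas1 (-2.17 ± 0.24 in homeostatic cells against 0.39 ± 0.22 in DEC cells, adjusted p = 0.000658) and Arfgef3 (-2.96 ± 0.22 in homeostatic cells against 0.28 ± 0.21 in DEC cells, adjusted p = 3.16e-05) belong to the same set, and for both the difference from the gut comparison was called as well. Mean Tnfsf14 in the DEC arrays was 5.15 in CD25+ and 5.91 in CD25- cells, both below the filter, where background holds up the value. Plagl1 differed by 2.29 ± 0.38 in homeostatic cells against -0.42 ± 0.36 in DEC cells (adjusted p = 0.0279). Of the 220 genes, 22 were also called in the DEC comparison, all in the same direction, with the same limits as the overlap with the gut. DEC CD25- arrays 3 and 4 were dim (medians 68.5 and 63.7), and donor strain, receptor, host and sort differ between the systems, which cannot be told apart.

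**Figure D5:**
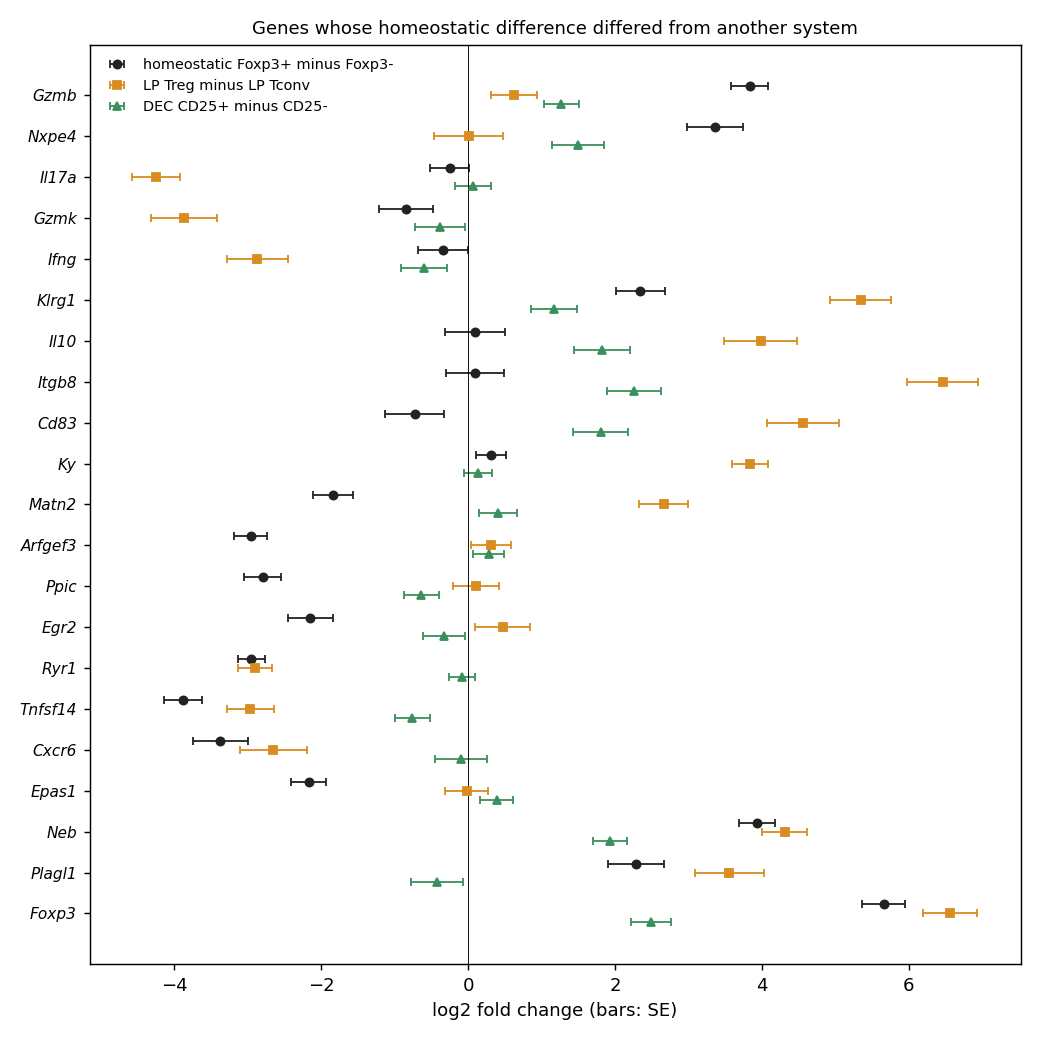
Log2 fold change with its standard error (horizontal axis) of 21 genes in 3 comparisons: homeostatic Foxp3+ minus Foxp3- (black), LP Treg minus LP Tconv (orange) and DEC CD25+ minus DEC CD25- (green). Gzmb and Nxpe4 lie further right in homeostatic than in gut cells, Itgb8, Il10 and Klrg1 further left, and Arfgef3, Ppic and Epas1 lie further left in homeostatic cells than in either other comparison.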

How the data were processed

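Sorted CD4+ T cells of mice gave RNA that was hybridised to Affymetrix M430v2 arrays after Trizol isolation and amplification with the MessageAmp kit, per the labels' protocols. The deposited values are linear probe set intensities; the authors made them with RMA in GenePattern, per the series' design text, and the version is not given in the sources used here. RMA corrects background on each array, and its normalization and probe summary use the arrays together. Differences of dim genes are compressed in such values. Log2 was taken of the deposited values here, with no pseudocount.

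Platform annotation gave 34945 of 45101 probe sets 1 gene symbol, 932 several and 9224 none or a control, and only the first were used. Each of 18193 genes was read from its brightest probe set by mean (9010 genes had several). A gene was tested when at least 1 of the 9 group means lay above the median of the table (intensity 77.0, log2 6.27), which left 12516 genes. Group means over the 23 arrays came from limma 3.58.1 (lmFit, eBayes) in R 4.3.3, with 14 residual and 3.48 prior degrees of freedom, and p-values were adjusted by Benjamini-Hochberg over all genes tested, two-sided, called under 0.05. Tables and figures used Python 3.11.15 with pandas 2.3.3, numpy 2.4.6 and matplotlib 3.10.9. The scripts were tested on simulated data. The number of arrays limits the precision.

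Same-number arrays of the homeostatic groups deviated together: residuals from the group means correlated at 0.66, 0.58 and 0.49 across genes, and other pairs at -0.49 to -0.15, which residuals that cancel within a group force to be negative on balance. The numbers were therefore read as pairs, which the labels do not state, and fits with the number as a block stand beside the main one.

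Named genes were the 6 markers, called and preselected members of 34 gene lists, the 15 largest rises and falls among called genes without overlap, the 8 most significant genes of each interaction that were also called in 1 of its comparisons, and the 8 with the smallest p called with the block alone. Clone names and receptor segments were counted, not named. Genes mentioned with a value beyond these (Nrp1, Nt5e, Penk, Fcrla, Ebf1, Itgam) are list members chosen after their values were seen. The members and lists were chosen with earlier results of these data known. Alternatives were other normalizations, filters, probe set rules, array weights, arrays left out and blocks.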

Additional observations from a re-analysis of the deposited data

Results flagged for a closer look

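The homeostatic difference departed from another system, by the limma test of the difference itself, for 45 gene and system pairs among the named genes. Values are the homeostatic minus the other log2 difference. The homeostatic difference lay below that of gut cells (LP Treg minus LP Tconv) for Itgb8 (-6.37, adjusted p = 3.68e-05), Cd83 (-5.29, adjusted p = 0.000284), Matn2 (-4.50, adjusted p = 3.68e-05), Phactr2 (-4.33, adjusted p = 0.00641), Il10 (-3.90, adjusted p = 0.00428), Ky (-3.52, adjusted p = 3.62e-05), Dhrs3 (-3.38, adjusted p = 0.000284), Arfgef3 (-3.27, adjusted p = 9.69e-05), Klrg1 (-3.00, adjusted p = 0.00706), Ppic (-2.90, adjusted p = 0.000857), Egr2 (-2.62, adjusted p = 0.00951), Ppm1l (-2.57, adjusted p = 0.000284), Gpr15 (-2.32, adjusted p = 0.0257), Epas1 (-2.15, adjusted p = 0.00641), Tnfrsf4 (-1.69, adjusted p = 0.0463), Lbp (-1.29, adjusted p = 0.00711), Ikzf2 (-1.24, adjusted p = 0.0126) and Smad3 (-1.16, adjusted p = 0.0407).

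It lay above the gut difference for Il17a (4.00, adjusted p = 7.68e-05), Nxpe4 (3.36, adjusted p = 0.00771), Gzmb (3.20, adjusted p = 0.000369), Xcl1 (3.04, adjusted p = 0.015), Gzmk (3.02, adjusted p = 0.0126), Ifng (2.53, adjusted p = 0.0273) and Slamf7 (1.55, adjusted p = 0.00329).

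It lay below the DEC difference (CD25+ minus CD25-) for Cxcr6 (-3.27, adjusted p = 0.00625), Arfgef3 (-3.24, adjusted p = 3.16e-05), Tnfsf14 (-3.12, adjusted p = 0.000286), Ryr1 (-2.87, adjusted p = 2.49e-05), Ube2e2 (-2.78, adjusted p = 0.00165), Epas1 (-2.56, adjusted p = 0.000658), St6galnac2 (-2.50, adjusted p = 0.00085), Matn2 (-2.24, adjusted p = 0.0091), Ppic (-2.16, adjusted p = 0.00757), Dhrs3 (-2.05, adjusted p = 0.0105), Pde7a (-1.96, adjusted p = 0.00757), Lbp (-1.68, adjusted p = 0.000317), Cd96 (-1.61, adjusted p = 0.0279), Tnfsf13b (-1.52, adjusted p = 0.0346) and Cx3cr1 (-1.35, adjusted p = 0.0305).

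It lay above the DEC difference for Foxp3 (3.17, adjusted p = 0.000658), Plagl1 (2.71, adjusted p = 0.0279), Gzmb (2.56, adjusted p = 0.00131), Neb (1.99, adjusted p = 0.00969) and Cd55 (1.82, adjusted p = 0.0091).

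Against the gut, Smad3 was not called after quantile (0.0696) or loess normalization (0.0812) or with array weights (0.0712), and Tnfrsf4 with the array number as a block in each system (0.077) or with array weights (0.116), which also ended the call of Ifng (0.124). Against DEC, Cd96 was not called after quantile (0.107) or loess normalization (0.111), nor was Pde7a after loess (0.0509); without the 2 dim DEC CD25- arrays Tnfsf13b (0.122), Cd96 (0.0736) and Cx3cr1 (0.0934) were not called, nor was Cx3cr1 with the block (0.0584). No gene's homeostatic values were tested for a single deviating array, as groups of 3 are too small.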

How the results depend on the processing

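The 220 homeostatic calls became 741 with the 6 arrays fitted alone, 2078 with these blocked by number, 1236 with array weights and 435 without both dim DEC CD25- arrays, and these fits kept 212, 220, 220 and 220 of the 220. With the replicate block in the 23-array fit 217 were called; of the named calls it ended those of Gpm6b, Pde2a and Ier3, and no other. Leaving out 1 homeostatic array gave 133 to 173 calls, and leaving out a numbered pair, an alternative added after seeing the data, gave 71, 131 and 74 for numbers 1, 2 and 3. With the replicate block in each of the 3 systems 401 were called (215 of the 220 kept), and the other settings gave 217 to 301. The homeostatic minus LP count of 97 became 181 with the replicate block in each system, 179 without the dim arrays, 69 to 88 without 1 array, and 60 and 53 without pair 1 and pair 3; the share with a higher homeostatic value was 27.8%, against 37.9% after loess. The homeostatic minus DEC count of 42 became 127 with that block, 292 with array weights, 21 to 40 without 1 array, and 12, 26 and 13 without pair 1, 2 and 3; 23.8% had a higher homeostatic value, against 40.0% after quantile, 45.6% after loess normalization and 43.6% without the dim arrays. The cause of these changes was not tested, except that fits with fewer homeostatic arrays have fewer samples. Of the 71 named called genes 47 kept their call without any one array, and 5 (Tnfrsf4, Tox2, Pde2a, Ier3 and Gpm6b) lost it without each of them. Without a numbered pair, 34, 20 and 34 of the 71 were lost. Of the 47, 14 were lost without some pair and 33 were kept in all 9 fits. No named call changed direction in an alternative that gave it a value; Tnfsf13b and Il1r1 had none with the mean of probe sets, and Matn2 had none with the filter on the homeostatic groups. No stated depth exists for arrays; 53 called genes had a lower group below the filter, so their folds are bounds.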

Other observations

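With the array number as a block, 16 genes were called that were not called without it. Among them were Car2 (8.29, 11.29 and 9.96 in Foxp3+ and 9.54, 12.37 and 10.59 in Foxp3- cells, adjusted p = 0.00333 with the block) and Car1 (6.69, 9.71 and 8.51 in Foxp3+ cells and 7.61, 10.54 and 8.78 in Foxp3- cells, 0.0261), carbonic anhydrases of red cells. Rhag (0.00543) and Rhd (0.018), components of the Rhesus complex of red cells, and S100a9 (0.0144), a neutrophil protein, behaved likewise. Each was lower in the Foxp3+ array of every number, with pair differences between -1.35 (S100a9, number 1) and -0.27 (Car1, number 3), and was highest on array 2 and lowest on array 1 of Foxp3+ cells.

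Kcna2, a potassium channel gene (block 0.024), and Serpinb1a, a protease inhibitor gene (0.0243), were lower in Foxp3+ cells in the same fit, and Chdh, choline dehydrogenase, was higher (0.0206).

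The chemokine genes Ccl3 (5.74, 9.19 and 5.77 in Foxp3+ and 6.24, 9.91 and 6.07 in Foxp3- cells) and Ccl4 (7.46, 8.43 and 7.47 in Foxp3+ cells and 7.46, 8.78 and 7.72 in Foxp3- cells) were highest on array 2 of both groups.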
